A study of Mustela putorius furo and Mus musculus with 4 samples.

Results

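Transcripts of 9 genes were examined in cultured ferret and mouse astrocytes: the metabotropic glutamate receptor genes Grm2, Grm3, Grm4, Grm5, Grm7 and Grm8, and the Homer scaffold genes Homer1, Homer2 and Homer3. They were chosen by gene symbol, without regard to case. All 9 had a value in mouse astrocytes, and 8 of them were among the 13373 symbols listed for both species. Homer3 was matched by symbol in mouse only, and its ferret transcript was not analysed here. Each symbol had a single value per species.

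The astrocytes came from the cerebral cortex of ferrets (Mustela putorius furo) on postnatal day 1 and of ICR mice on postnatal day 1 to 3, with 2 libraries per species. Mixed glia were grown with serum for 14 days, shaken and replated, and the cells then spent 4 days without serum before RNA was harvested on day 7. The labels name no treatment and no altered genotype, and no strain for the ferrets. The sources do not say whether the duplicates are separate cultures, so the p-values measure the spread between these libraries only. Levels are given as FPKM, mapped fragments relative to exon length and to the library's total, which the authors computed on each species' own annotation. Species, annotation and culture therefore cannot be told apart.

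Metabotropic glutamate receptors are G protein-coupled receptors. Group I, to which Grm5 belongs, couples to Gq/11 and phospholipase C, which releases calcium through IP3 receptors. Group II (Grm2 and Grm3) and group III (Grm4, Grm6, Grm7 and Grm8) couple to Gi/o and inhibit adenylyl cyclase. In rodent cortex, mGluR5 and mGluR3, the products of Grm5 and Grm3, are known as the main receptors of this family in astrocytes, and mGluR5 is best known from young animals. Homer proteins bind a short proline-rich ligand in the tail of group I receptors, in IP3 receptors and in Shank scaffolds, and so hold these proteins close to each other.

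The coding bases of that ligand were looked up in mouse genes, and no ferret sequence was searched. The ligand is a pair of prolines, any pair of residues and a phenylalanine, and its code was searched in frame, on the coding strand, as CCNCCNNNNNNNTTT or CCNCCNNNNNNNTTC, in the longest complete coding sequence of each mouse gene in GENCODE (GRCm38). The 15 matching bases are in capitals.

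Grm5: ctcactCCACCATCGCCCTTCagggac

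Itpr1: aacaatCCACCCAAGAAATTCagagac

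Shank3: gtgccaCCCCCTGAAGAGTTTgccaat

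The Grm5 window lies in an exon on the plus strand, at chr7:88130717-88130743, and the match begins at codon 1156 of 1202. The match is close to the end of the coding sequence, which encodes the intracellular tail. The Itpr1 window crosses a splice junction and spans chr6:108241310-108339508, and the Shank3 window, the later of its 2 matches, lies at chr15:89549197-89549223, both on the plus strand. Of the other receptors, Grm2 and Grm7 held 1 match each, at codon 186 of 871 and codon 200 of 921, far from the tail. Grm3, Grm4, Grm6 and Grm8 held 0, as did Homer1, Homer2 and Homer3. Of the Homer-binding partners listed below, Trpc1, Ryr2 and Agap2 also held 0. Among all 21549 mouse coding sequences searched, 6.93% held a match. A match is a description of the letters and not a binding site.

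Receptor transcripts were scarce in both species, and the Homer transcripts were more abundant. Grm2 was called higher in ferret astrocytes, and Grm3 stood higher in mouse astrocytes at levels under 1 FPKM. Grm4, Grm7 and Grm8 were under 0.1 FPKM in every library. Homer2 was called higher in ferret astrocytes, and Homer1 was higher by a smaller difference. A call required an adjusted p under 0.05 and an absolute difference above 1 on the log2(FPKM + 1) scale. Of the 2 receptors tested 1 was called higher and 0 lower, and of the 2 Homer genes tested likewise 1 and 0. Among all 10204 genes tested, those with a mean of at least 1 FPKM in a species, 13.1% were called higher and 30.1% lower, and 88.6% passed the adjusted p alone. Over all 13373 shared symbols these shares were 9.98%, 22.9% and 75.2%. With so few members tested, no share of theirs can be read against this background. In RNA of whole cultures, fewer cells of a type and less RNA per cell cannot be told apart.

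**Figure D1:**
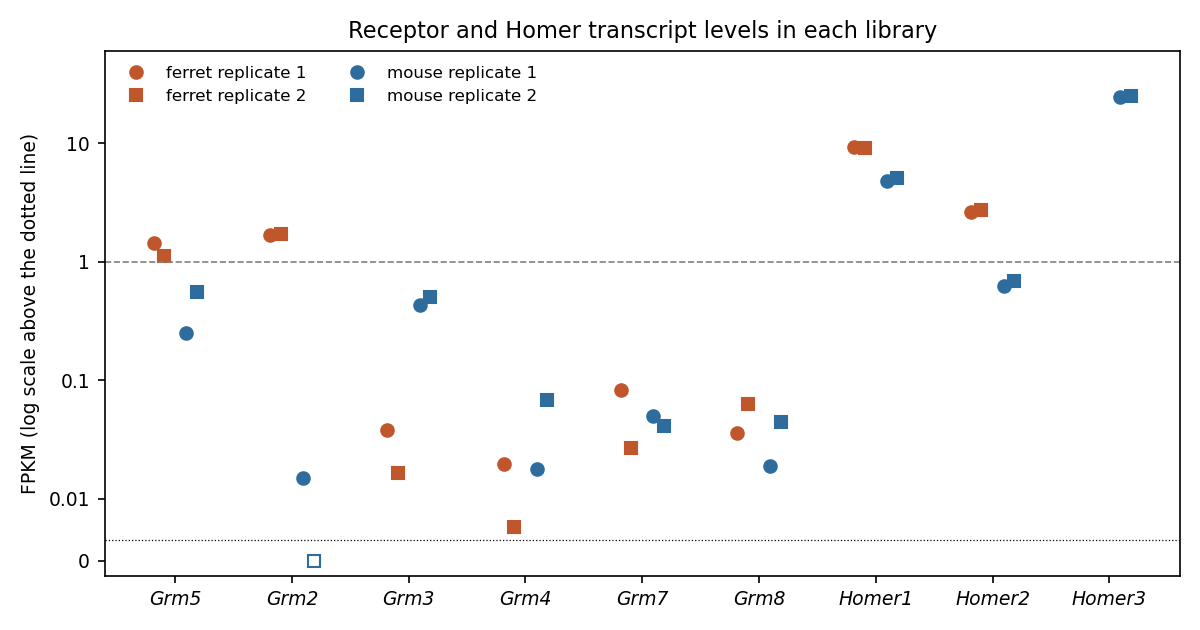
FPKM of each gene (x axis) in each of the 4 libraries, on a log axis above the dotted line, with an open symbol below it for a value listed at 0. The dashed line marks 1 FPKM. Grm5, Grm2 and Homer2 lie above it in both ferret libraries and below it in both mouse libraries, and Homer3 is shown for mouse only.

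Grm5 encodes mGluR5, a group I receptor. It stood at 1.44 and 1.12 FPKM in ferret and at 0.250 and 0.558 in mouse astrocytes (means 1.28 ± 0.224 and 0.404 ± 0.218, SD, n = 2). The species did not overlap, although the mouse duplicates differed by more than their lower value. The mean level in ferret was 3.16 times that in mouse astrocytes. On the log2(FPKM + 1) scale the difference was 0.70 (95% confidence interval 0.44 to 0.96, adjusted p = 2.47e-04 by limma, over the 10204 genes). Over all 13373 shared symbols it was again 0.70, with a wider interval (0.24 to 1.165, adjusted p = 0.0233 by limma). Grm5 thus missed the limit of 1 for a call. It passed with a pseudocount of 0.1, at 1.51, and stood at 1.00 after quantile normalization of the libraries, just past the limit. In GRCm38 the mouse gene spans chr7:87584168-88134907 on the plus strand, and 6 annotated genes overlap it, 1 of them on the other strand.

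Grm2 encodes mGluR2, a group II receptor known mainly from neurons. It stood at 1.67 and 1.71 FPKM in ferret astrocytes (mean 1.69 ± 0.0264, SD, n = 2) and at 0.0150 FPKM in mouse replicate 1, and it is listed at 0 in mouse replicate 2. The ferret duplicates were nearly equal and lay far above both mouse values. The log2 difference was 1.42 (95% confidence interval 1.25 to 1.59, adjusted p = 4.80e-08 by limma). Grm2 was called higher in ferret astrocytes, also under each alternative scaling and pseudocount that was tried. With any single library left out, the difference lay between 1.405 and 1.426. Grm2 passed the FPKM filter through its ferret values only. In the fit over all shared symbols the log2 difference was again 1.42 (95% confidence interval 1.36 to 1.47, adjusted p = 1.41e-04 by limma). On the log2 scale its size depends on the pseudocount, since the mouse values are close to 0, and reached 4.06 with a pseudocount of 0.1. In ferret astrocytes 35.6% to 36.0% of the shared symbols had a lower FPKM than Grm2, so its level was low there too. The mouse gene spans chr9:106643095-106656082 (minus strand, 7 exonic regions), and 1 gene overlaps it on the other strand.

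Grm3 encodes mGluR3, the other group II receptor, and showed the opposite order. It stood at 0.0378 and 0.0166 FPKM in ferret and at 0.429 and 0.502 in mouse astrocytes (means 0.0272 ± 0.0150 and 0.465 ± 0.0520, SD, n = 2). Both mouse libraries lay above both ferret libraries, and the mean level in mouse was 17.1 times that in ferret astrocytes. Because it was under 1 FPKM in both species, Grm3 entered only the fit over all 13373 shared symbols, where the log2 difference was -0.51 (95% confidence interval -0.61 to -0.41, adjusted p = 0.0011 by limma). This missed the limit of 1. With a pseudocount of 0.1 it was -2.15, past the limit (adjusted p = 0.00141 by limma), as were 29.4% of all shared symbols in that direction. Rescaled to a sum of 1000000 it was -1.18, and 20.7% of the shared symbols were called lower. The mouse gene spans chr5:9485541-9725170 (minus strand, 6 exonic regions) and overlaps 1 gene on the same strand.

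Grm4, Grm7 and Grm8 encode group III receptors, known mainly from presynaptic terminals of neurons. Grm4 gave 0.0198 and 0.00579 FPKM in ferret against 0.0179 and 0.0680 in mouse astrocytes. Grm7 gave 0.0832 and 0.0266 FPKM in ferret against 0.0496 and 0.0414 in mouse astrocytes. Grm8 gave 0.0360 and 0.0633 FPKM in ferret against 0.0188 and 0.0442 in mouse astrocytes. For each of these genes the species overlapped. Their log2 differences in the fit over all shared symbols were -0.04, 0.01 and 0.03, with 95% confidence intervals of -0.13 to 0.05, -0.08 to 0.11 and -0.04 to 0.09, and the smallest adjusted p was 0.279 by limma. Grm6, the remaining group III receptor, is listed at 0 in all 4 libraries. At these levels a difference was not detectable.

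Grm3, Grm4, Grm7 and Grm8 were thus the 4 members under 1 FPKM in both species, as were 3169 of the 13373 shared symbols. Grm5, Grm2 and Homer2 passed the limit through their ferret values only, so among the genes tested they could hardly have been higher in mouse. The lowest values of the ferret duplicates stood in ratios of small whole numbers. A single fragment was worth 1.17 times as much FPKM in ferret replicate 2 as in replicate 1, by the most common ratio among low genes. Of 834 low ferret genes, 25.2% stood at this ratio. After division by this step, the ferret duplicates stood in ratios of 4 to 1 for Grm4, 2 to 3 for Grm8, 8 to 3 for Grm3 and 11 to 3 for Grm7. Each was within 0.05% of the whole-number ratio. The mouse duplicates were not searched for whole-number ratios. Divided by their own step of 0.834, they stood at 0.220 for Grm4, 0.355 for Grm8, 0.712 for Grm3 and 0.998 for Grm7. Read counts, which the study lists in a supplement, were not used here.

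Within a library, the share of each receptor does not depend on how the species are scaled to each other, though it still rests on the gene models. Together the 6 receptors reached 3.28 and 2.94 FPKM in ferret but 0.780 and 1.21 FPKM in mouse astrocytes. Grm2 took 50.9% and 58.1% of that sum in ferret and 1.93% and 0% in mouse libraries. Grm3 took 1.15% and 0.566% in ferret and 55.0% and 41.4% in mouse libraries. The group II transcript that dominated was therefore a different one in each species. Grm5 took 43.7% and 38.1% in ferret and 32.0% and 46.0% in mouse libraries, and here the species overlapped. With 2 libraries against 2, the smallest p of a two-sided exact permutation test is 0.333, which is the value for the shares of both group II genes, so these shares are a description.

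**Figure D2:**
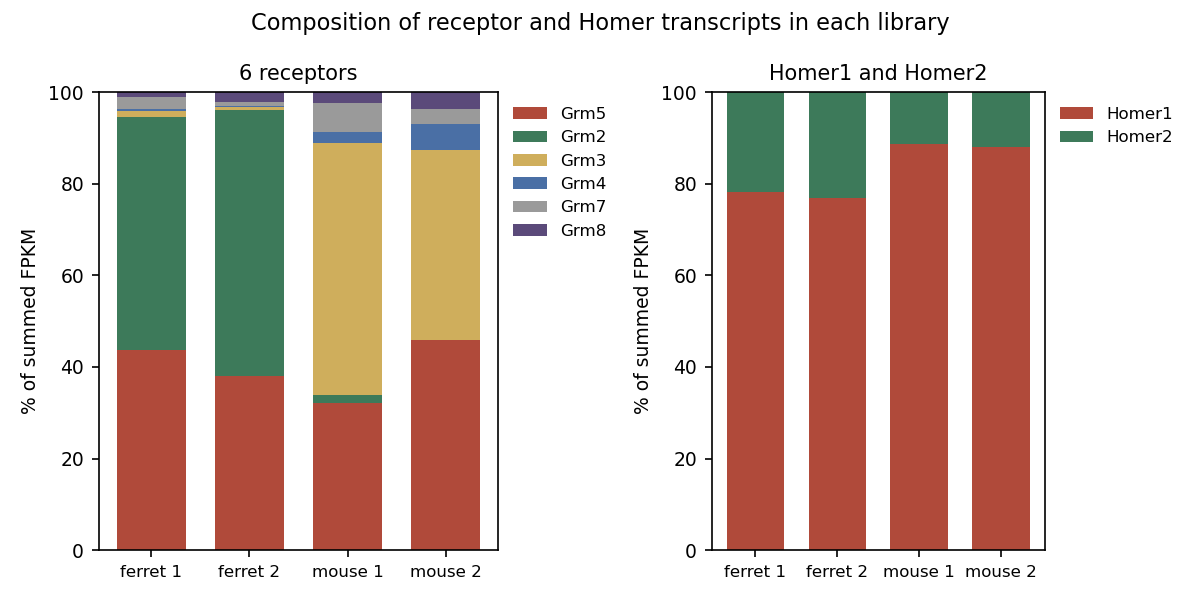
Share of each gene in the summed FPKM (y axis, percent) of the 6 receptors (left) and of Homer1 and Homer2 (right) in each library. Grm2 fills 50.9% and 58.1% of the ferret receptor bars and Grm3 55.0% and 41.4% of the mouse bars, while Grm5 ranges from 32.0% to 46.0% over the 4 libraries.

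Homer1 encodes the scaffold whose short, activity-induced form lacks the coiled coil and competes with the long forms. One value per gene does not separate these forms. Homer1 stood at 9.35 and 9.02 FPKM in ferret and at 4.79 and 5.08 in mouse astrocytes (means 9.18 ± 0.229 and 4.94 ± 0.203, SD, n = 2), and the duplicates lay close to each other. The mean level in ferret was 1.86 times that in mouse astrocytes. The log2 difference was 0.78 (95% confidence interval 0.62 to 0.94, adjusted p = 3.25e-06 by limma), under the limit of 1 for a call with FPKM as deposited. It passed that limit, at 1.12, when each library was rescaled to 1 common sum of the shared symbols (their mean sum), and at 1.19 after quantile normalization. Its FPKM exceeded that of 65.1% and 63.9% of the shared symbols in the ferret libraries, against 44.1% and 45.2% in mouse. The mouse gene spans chr13:93299635-93405129 (plus strand, 15 exonic regions) and overlaps 2 genes on the same strand.

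Homer2, a scaffold of the same family, stood at 2.62 and 2.71 FPKM in ferret and at 0.619 and 0.693 in mouse astrocytes (means 2.66 ± 0.0648 and 0.656 ± 0.0525, SD, n = 2). The species were well separated, and the mean level in ferret was 4.06 times that in mouse astrocytes. The log2 difference was 1.14 (95% confidence interval 0.97 to 1.32, adjusted p = 2.77e-07 by limma), and Homer2 was called higher in ferret astrocytes, also under each scaling. Homer2 passed the FPKM filter through its ferret values only. In the fit over all shared symbols the log2 difference was again 1.14 (95% confidence interval 1.02 to 1.27, adjusted p = 3.73e-04 by limma). As a share of Homer1 and Homer2 together, Homer2 made up 21.9% and 23.1% in ferret and 11.4% and 12.0% in mouse libraries, with p = 0.333 in the exact permutation test. Homer1 exceeded Homer2 in every library, by 3.57 and 3.33 times in ferret and by 7.75 and 7.33 times in mouse libraries. The mouse Homer2 gene spans chr7:81600481-81707527 (minus strand, 12 exonic regions) and overlaps 2 genes on the other strand.

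Homer3 stood at 24.6 and 24.9 FPKM in mouse astrocytes (mean 24.8 ± 0.222, SD, n = 2) and was the most abundant of the 9 genes there. Its share of all Homer FPKM in mouse astrocytes was 82.0% and 81.2%, against 2.06% and 2.26% for Homer2. The mouse gene spans chr8:70282827-70294361 (plus strand, 10 exonic regions) and overlaps Ddx49 on the other strand. The library kit keeps strand, but the sources do not state that strand was used in quantification. The summed Homer level of the species cannot be compared without a ferret value of Homer3.

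The share of all genes past the limit also moves with the scaling. With the mean sum, 19.1% of the genes tested were called higher and 21.7% lower. The shares were 21.5% and 24.9% with a sum of 1000000, and 20.3% and 20.5% after quantile normalization. With a pseudocount of 0.1 they were 15.5% and 33.6%. All members kept their side of the call limit when any single library was left out. Without ferret replicate 1 the difference of Grm7 changed sign, to -0.03, at a size that was not called in either case.

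**Figure D3:**
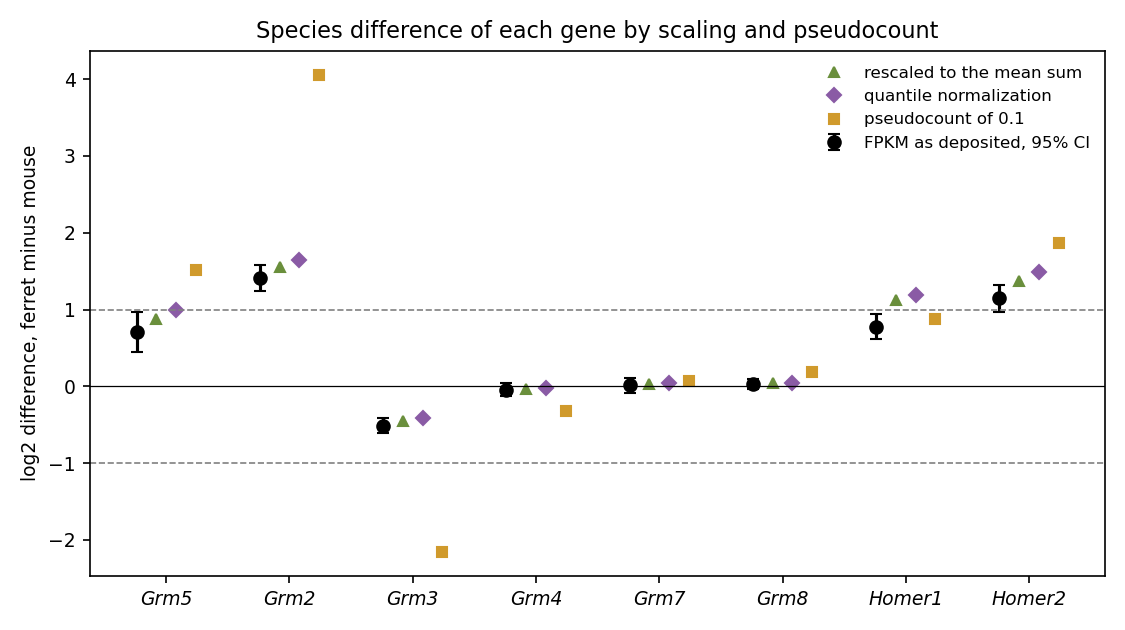
Log2 difference, ferret minus mouse (y axis), of the 8 genes with a value in both species, for FPKM as deposited with its 95% confidence interval, rescaled to the mean sum, after quantile normalization and with a pseudocount of 0.1. Dashed lines mark the limits of 1 and -1. Grm2 and Homer2 lie above 1 in every setting shown, Grm5 and Homer1 cross it in some, Grm3 passes -1 only with the pseudocount of 0.1, and Grm4, Grm7 and Grm8 lie between -0.32 and 0.19.

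For the receptor and the Homer gene with the highest mean over all 4 libraries, Grm2 and Homer1, the tested genes nearest in level were found by Euclidean distance over the 4 log2(FPKM + 1) values. For Grm2 they were Insm1 (distance 0.07), Adamts13 (0.08) and Cpne5 (0.11), and for Homer1 they were Dgka (0.11), Galnt10 (0.11) and Tmcc3 (0.13). With 4 libraries in 2 groups, such likeness means only similar levels in each species.

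Among 10 Homer-binding partners, 9 had values in both species and 5 were tested. Of these, 1 was called higher and 2 lower in ferret astrocytes, beside 13.1% and 30.1% of all genes tested. The median log2 difference was -0.48, against -0.35 over all genes tested. The list's median was -0.18 with the mean sum, -0.22 with a sum of 1000000, -0.0405 after quantile normalization and -0.0061 without the filter. Itpr1 encodes an IP3 receptor of the endoplasmic reticulum, and its mouse coding sequence holds the ligand code. It had 5.76 and 5.51 FPKM in ferret against 17.4 and 17.2 in mouse astrocytes, a log2 difference of -1.46. Shank2, a postsynaptic scaffold, was higher in ferret astrocytes, with 2.30 and 2.31 against 0.598 and 0.600 FPKM (log2 difference 1.05). It passed the FPKM filter through its ferret values only. Its relative Shank3 was lower, with 1.17 and 1.15 against 3.55 and 3.68 FPKM (log2 difference -1.10), and it lost the call after rescaling to the mean sum, at -0.84, and after quantile normalization, at -0.68. The largest adjusted p of these 3 genes was 4.46e-07 by limma.

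Of 15 genes for Gq/11 and phospholipase C, through which group I receptors act, 13 were tested, 1 was called higher and 5 were called lower, against 13.1% and 30.1% of all genes tested. Over the tested genes of the list the median difference was -0.48, and over all genes tested -0.35. With both rescalings the list's median was -0.11, and after quantile normalization -0.10. Gna14, a G protein alpha subunit of the Gq family, had 1.40 and 1.30 FPKM in ferret against 10.0 and 10.4 in mouse astrocytes, a log2 difference of -2.25. Plcb4, a phospholipase C, had 0.930 and 0.893 FPKM in ferret against 7.37 and 6.24 in mouse astrocytes (log2 difference -2.03). The protein kinase C gene Prkcb was lower as well, with 0.515 and 0.564 against 4.56 and 3.37 FPKM (log2 difference -1.68), and Itpr1, described above, is the fourth of these. Plcb4 and Prkcb passed the FPKM filter through their mouse values only. The major G protein genes stood closer. Gnaq had 19.5 and 21.6 FPKM in ferret against 21.7 and 22.0 in mouse astrocytes (log2 difference -0.08, adjusted p = 0.26 by limma), and Gna11 had 18.8 and 19.0 against 26.6 and 27.1 FPKM (log2 difference -0.48). The single gene called higher, Itpr3, had 6.99 and 8.50 against 2.36 and 2.06 FPKM (log2 difference 1.44), opposite to Itpr1. Itpr2, the other IP3 receptor gene of the list, was lower without a call. It had 2.79 and 2.62 against 4.64 and 4.01 FPKM (log2 difference -0.52). Gnaq, Gna11, Itpr2, Itpr3 and Prkcd, the fifth gene called lower (log2 difference -1.46), were chosen after seeing their values.

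Of 14 genes for Gi/o and adenylyl cyclase, through which group II and III receptors act, 13 were tested, 1 was called higher and 5 were called lower, beside the same shares of 13.1% and 30.1% over all genes. The list's median was -0.51 where that of all genes was -0.35. Rescaled to the mean sum, rescaled to 1000000 and after quantile normalization, 3 of its genes were called higher and the median was -0.19, -0.22 and -0.11. Gnao1, the alpha subunit of Go, differed most, with 7.81 and 7.48 FPKM in ferret and 116.5 and 130.6 in mouse libraries (log2 difference -3.85, adjusted p = 5.04e-11 by limma). Gnai2, the most abundant of the list in both species, had 217 and 235 FPKM in ferret against 301 and 320 in mouse astrocytes (log2 difference -0.46) and was, like Adcy7 and Adcy8, picked out once values were known. Gnaz, another alpha subunit of the Gi family, was higher in ferret astrocytes, with 7.33 and 8.25 against 1.60 and 1.85 FPKM (log2 difference 1.69). The adenylyl cyclase genes Adcy5 and Adcy1 were lower. Adcy5 had 0.344 and 0.249 FPKM in ferret against 4.58 and 4.54 in mouse astrocytes (log2 difference -2.10). Adcy1 had 0.858 and 1.12 against 5.69 and 6.05 FPKM (log2 difference -1.79). The remaining genes called lower were Adcy7 and Adcy8, at -1.37 and -1.40, and Adcy7 lost the call after quantile normalization, at -0.96. Adcy1, Adcy5 and Adcy8 passed the FPKM filter through their mouse values only. Adcy6, the most abundant cyclase in both species, was not called, with 14.8 and 15.5 against 14.3 and 13.7 FPKM. Adcy9 was higher without a call, with 7.58 and 8.25 against 5.22 and 5.14 FPKM. Both were also picked out once values were known. By the adjusted p of limma alone, 4 of the 13 genes were higher and 8 lower.

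Of 12 genes that regulate these receptors, 10 were tested, 0 were called higher and 3 were called lower, close to the 30.1% called lower among all genes. The list's median was -0.32, near the -0.35 of all genes. It was -0.0417 with the mean sum and -0.0554 with a sum of 1000000, and it turned to 0.0909 after quantile normalization, with 1 gene called higher in each of these settings. Arrb1 and Arrb2 encode beta-arrestins, which uncouple receptors from G proteins. Arrb1 had 1.33 and 1.14 FPKM in ferret against 7.76 and 6.98 in mouse astrocytes (log2 difference -1.91). Arrb2 had 5.80 and 7.56 against 18.1 and 19.1 FPKM (log2 difference -1.36) and lost the call after quantile normalization, at -0.96. Rgs4, which speeds up the shut-off of G proteins, had 0.0796 and 0.0934 FPKM in ferret against 2.64 and 2.81 in mouse astrocytes (log2 difference -1.78). It passed the FPKM filter through its mouse values only. The largest adjusted p of the genes called in the 3 lists of G proteins and regulators was 6.62e-07 by limma.

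**Figure D4:**
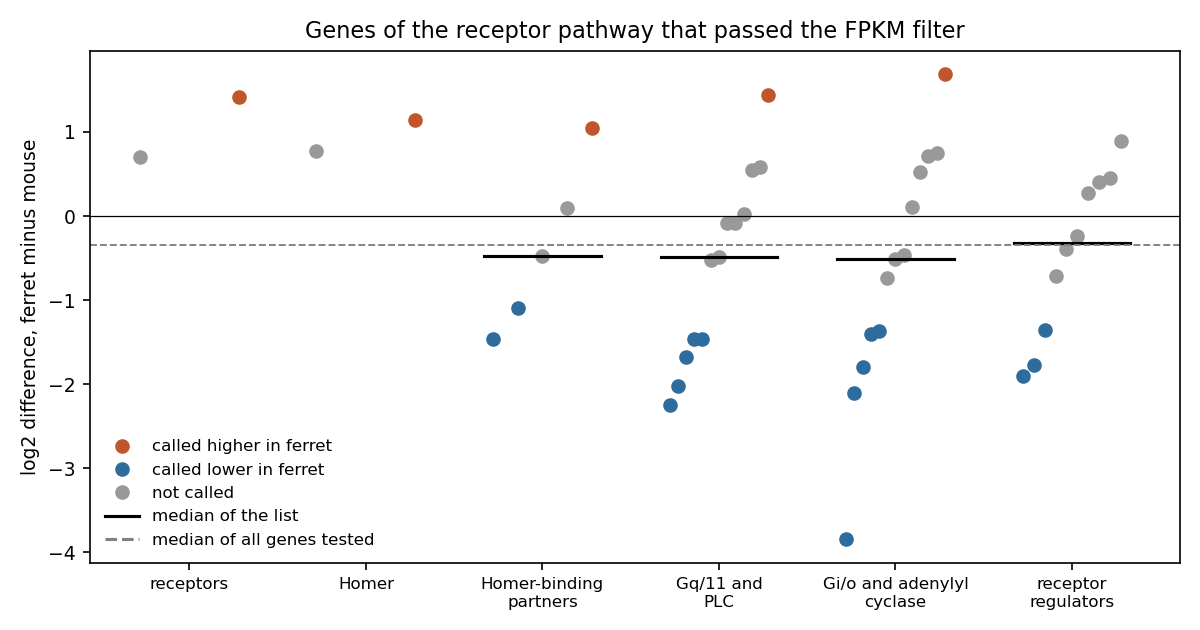
Log2 difference, ferret minus mouse (y axis), of each gene that passed the FPKM filter, by list (x axis), colored by its call. Short bars are list medians, between -0.32 and -0.51, and the dashed line is the median of all genes tested at -0.35. Gnao1 is the lowest point at -3.85.

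The cultures held transcripts of other cell types, and several of these differed between the species. All 10 astrocyte markers had values in both species and summed to 3554 and 3655 FPKM in ferret against 3106 and 3363 in mouse astrocytes, with Gfap at 1481 and 1522 against 1429 and 1546. The sums rest mostly on Gfap and Aldoc, with Aldoc at 1619 and 1700 against 916 and 1015 FPKM. Of the 10, 1 was called higher (S100b) and 6 were called lower in ferret astrocytes (Aqp4, Aldh1l1, Slc1a3, Slc1a2, Gja1 and Gjb6). Slc1a2 had 0.133 and 0.178 against 47.1 and 51.8 FPKM, and Aqp4 24.8 and 21.8 against 202 and 210. By the adjusted p of limma alone, 2 of the 10 were higher and 7 lower. Among all genes tested, 13.1% were called higher and 30.1% lower, and 88.6% passed the adjusted p alone. For neurons, 6 of 8 markers had values in both species, and they summed to 50.5 and 49.0 FPKM in ferret against 51.8 and 54.6 in mouse astrocytes. Stmn2, with a mouse mean of 125 FPKM, had no ferret value here and is not in the sum. Of the 4 neuronal markers tested, Syt1 (5.11 and 4.94 against 1.12 and 1.25 FPKM) and Dcx (1.66 and 1.25 against 0.0150 and 0.0412 FPKM) were called higher, and 0 were called lower. The other tested neuronal markers were not called: Map2 was lower, with 18.8 and 19.0 against 30.4 and 31.3 FPKM (log2 difference -0.68, adjusted p = 2.23e-06 by limma), and Gap43 had 24.1 and 23.1 against 19.8 and 21.5 FPKM. Rbfox3, which marks mature neurons, was at most 0.0350 in ferret and 0.0839 in mouse astrocytes. Oligodendrocyte lineage markers (7 of 8) summed to 65.2 and 75.2 FPKM in ferret against 16.9 and 15.1 in mouse astrocytes, and of the 6 tested, 2 were called higher (Mbp and Sox10) and 0 lower. By the adjusted p of limma alone, 4 of the 6 were higher and 2 were lower, namely Olig2 (4.92 and 5.18 against 9.62 and 9.80 FPKM) and Cspg4 (1.04 and 1.16 against 2.00 and 1.81 FPKM). Olig1, with a mouse mean of 112 FPKM, had no ferret value here and is not in the sum. Microglial markers (7 of 8) summed to 1.84 and 1.36 FPKM in ferret against 340 and 328 in mouse astrocytes, and all 7 were called lower. All 7 passed the FPKM filter through their mouse values only, so they could hardly have been called higher. Cx3cr1 is listed at 0 in both ferret libraries. Markers of meningeal fibroblasts (5 of 5) summed to 124 and 110 FPKM in ferret against 451 and 434 in mouse astrocytes, and all 5 were called lower. Dcx, Sox10 and the oligodendrocyte marker Mag passed the FPKM filter through their ferret values only. The fibroblast marker Lum and the astrocyte markers Slc1a2 and Gjb6 passed it through their mouse values only. The part of these cell types in the levels of the receptor, Homer and pathway genes was not tested.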

How the data were processed

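RNA of ferret and mouse astrocytes was sequenced in 2 libraries per species. The authors aligned the reads with STAR (2.7.0f, default settings) to the Ensembl genome of each species (release 99; GRCm38 for mouse) and deposited FPKM per gene from Cufflinks (2.2.1). The deposited FPKM holds no counts. The study lists read counts in a supplement, which was held here only in part and was not used, so depth is not given and low values carry no counting interval. Gene models of the ferret and the mouse may differ in length and completeness, which enters the values.

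Symbols were matched in upper case, keeping the largest mean where a symbol had several values. Species were compared with limma (3.58.1, R 4.3.3, empirical Bayes with a trend) on log2(FPKM + 1). The fit covered 10204 genes with a mean of at least 1 FPKM in a species, and a second fit covered all 13373 shared symbols. A call needed p under 0.05 after Benjamini-Hochberg adjustment together with a log2 difference beyond 1 in size. On this scale, changes of low genes are understated. The fit was checked on simulated data, which held no difference in annotation, scaling or culture between the species. Members, lists and alternatives were chosen with earlier results of these data known. All members are named, with up to 4 genes per list that had the largest differences among those called. Mouse coordinates and coding sequences are from GENCODE M21, another release than the authors used. Same-numbered libraries were from different species, and the correlation of their deviations was 0.01 across genes. Some genes are not reported here.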

Additional observations from a re-analysis of the deposited data

How the results depend on the processing

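Of 92 combinations of a member and an alternative, 91 kept the direction, the exception being Grm7 without ferret replicate 1, and 84 kept their side of the limit for a call. With FPKM rescaled to a sum of 1000000, and after quantile normalization, 4 members were called higher in place of 2. Grm5 was at 1.51 with a pseudocount of 0.1, at 1.51 after rescaling to 1000000 and at 1.00 after quantile normalization. Homer1 was at 1.12 after rescaling to the mean sum, 1.24 after rescaling to 1000000 and 1.19 after quantile normalization. Grm3 was at -2.15 with a pseudocount of 0.1 and at -1.18 after rescaling to 1000000. These settings move all genes: the median of all genes tested was -0.35 with FPKM as deposited, -0.01 under both rescalings and 0.05 with quantiles set equal. The list medians moved with it. For Gq/11 and phospholipase C they were -0.11, -0.11 and -0.10 with the mean sum, with 1000000 and with quantile normalization. In the same order they were -0.19, -0.22 and -0.11 for Gi/o and adenylyl cyclase, -0.18, -0.22 and -0.0405 for Homer-binding partners and -0.0417, -0.0554 and 0.0909 for receptor regulators. With a pseudocount of 0.1 they were -0.61 for both Gi/o and Homer-binding partners, and without the filter -0.0061 for Homer-binding partners. Genes called higher rose to 2 for Gq/11 after rescaling to 1000000, to 3 for Gi/o under each of these scalings and to 1 for regulators under each scaling and with a pseudocount of 0.1. Homer-binding partners called lower fell to 1 with quantile normalization or the mean sum.

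The replicate numbers are shared by both species but pair no animals. With the replicate block, the differences of Grm2, Grm5, Homer1 and Homer2 stayed at 1.42, 0.70, 0.78 and 1.14 (adjusted p of at most 1.48e-04 by limma), and the block changed no call of a member. Leaving out each library in turn changed no call of a member. Depth was used here only as the step between the duplicates of a species. How far depth limits the low receptor values was not tested.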

Other observations

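Some pathway genes stayed out of the tests above because they were under 1 FPKM in both species, and they were chosen after seeing their values. Elfn2, a synaptic adhesion protein that binds group III receptors, had 0.650 and 0.503 FPKM in ferret against 0.109 and 0.0821 in mouse astrocytes. Shank1, a postsynaptic scaffold with the Homer ligand code in mouse, had 0.874 and 0.939 FPKM in ferret against 0.322 and 0.302 in mouse astrocytes. Both genes were higher in ferret astrocytes. Over all 13373 shared symbols, 75.2% passed the adjusted p of limma alone, in either direction, so a species difference by itself was common. Plcb2, a phospholipase C best known from blood cells, had 0.0197 and 0.0139 FPKM in ferret against 0.635 and 0.454 in mouse astrocytes, the opposite order.

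Dnm3 and Cyth2 were matched by symbol in mouse only. Dnm3, a dynamin that binds Homer, had a mean of 4.13 ± 0.185 FPKM (SD, n = 2), and Cyth2, an exchange factor for small GTPases, had 32.8 and 35.9 FPKM. Their ferret transcripts were not analysed here.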
